A study of Mus musculus with 24 samples.

Results

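The oxidative phosphorylation genes are followed here across 24 mouse brain tumours, with the genes of the mitochondrial genome set beside those of the nucleus. Members were the protein-coding genes whose GRCm38 symbols begin with mt-Nd, mt-Co, mt-Cytb, mt-Atp, Uqcr or Atp5, with Nduf and a subunit letter and number, or with Cox and a number between 4 and 8, plus Sdha, Sdhb, Sdhc and Sdhd. The rule found 97 of the 49315 genes in the tables, of which 21811 are protein-coding. It took 13 mitochondrially encoded genes and 84 nuclear genes. The nuclear genes fall to complex I (37 genes), complex II (4), complex III (8), complex IV (18) and complex V (17), and the mitochondrial genes to complex I (7), complex III (1), complex IV (3) and complex V (2). Another 10 matching symbols were not protein-coding and were left out. By its wording the rule also takes a few genes whose products are not core subunits, such as Cox7a2l, a factor that joins complexes III and IV, and Atp5s, a coupling factor of ATP synthase. Of the 97 members, 96 had enough counts to be tested, and Cox8c, a testis isoform of a complex IV subunit, did not, with 2 counts over all libraries.

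Oxidative phosphorylation passes electrons from NADH and succinate through complexes I to IV of the inner mitochondrial membrane to oxygen, and complex V, the ATP synthase, uses the resulting proton gradient to make ATP. The mitochondrial genome encodes a small hydrophobic core of complexes I, III, IV and V, is transcribed inside the organelle as long polycistronic RNAs and is present in many copies per cell, whereas nuclear subunits are transcribed gene by gene and imported, and complex II is wholly nuclear. In brain, neurons rely heavily on this pathway, and tumours are known for varying in how much of it they use.

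The tumours grew in the right brain hemisphere of mice from CT-vIII, a CT-2A glioma line that carries mouse EGFR variant III (dmEGFRvIII) and firefly luciferase, so every group shares this graft. A pump infused the treatment into the brain at 0.5 µl/h for 72 h, between day 6 and day 9 after implantation. There were 4 treatments and 2 times, day 0 and day 3 after treatment, with 3 tumours in each of the 8 groups. The combination group received D2C7-IT and aCD40 together. The D2C7-IT group received 0.2 µg of an immunotoxin that binds EGFR and its variant and stops protein synthesis. The aCD40 group received 10 to 300 µg of an antibody that activates the immune receptor CD40, the dose of each tumour not being given in the sources used here. The vehicle group received 100 µg of rat IgG2a, a control antibody, in PBS with 2% albumin. RNA was polyadenylated RNA of unsorted frozen tissue, so tumour, brain and immune cells are mixed, and fewer cells of a type and less RNA per cell cannot be told apart.

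Libraries held 24.7 M to 48.1 M counted reads. Levels are in CPM, a gene's counts relative to its library's total after scaling by TMM, a method that equalises most genes between libraries. The labels take each tumour as a separate sample, and p-values measure the spread between these tumours. A set of 3 day 3 libraries stood apart: vehicle replicates 2 and 3 and aCD40 replicate 1 had Egfr at 283, 343 and 330 CPM, against 13.1 to 50.8 CPM in the other 21 libraries. In those 3, 10 proliferation markers averaged 6.56 to 6.85 (log2 CPM) where the remaining tumours had 0.19 to 3.68, and 10 neuron markers averaged 6.99 to 7.69 where those had 8.40 to 9.17. They enter all day 3 contrasts that use vehicle or aCD40, whose medians, ratios and calls were also computed without them.

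Of the 13 mitochondrially encoded genes, 7 had at least 318 CPM in every tumour, mt-Nd3 was at 13.1 to 37.5 CPM, and the other 5 never passed 4.47 CPM. Together the 13 took 1.30 to 3.62% of a library's counts, and the 84 nuclear members 0.78 to 1.02%. Per kilobase of transcript, mt-Co1, the catalytic subunit of complex IV, had a mean level of 7374 CPM over the 24 libraries, mt-Cytb, the cytochrome b of complex III, 4275 CPM, and mt-Nd1, a membrane subunit of complex I, 3684 CPM. The other complex I subunits mt-Nd2, mt-Nd6, mt-Nd4 and mt-Nd5 lay between 1386 and 2100 CPM per kilobase. By contrast mt-Co2, the subunit of complex IV that takes electrons from cytochrome c, was at 0.327 to 1.00 CPM, its partner mt-Co3 at 1.31 to 3.93 CPM, and mt-Atp6, the proton channel of complex V, at 0.369 to 1.72 CPM. The subunits mt-Atp8, mt-Nd4l and mt-Nd3 were at 0.0568 to 0.543, 0.724 to 4.47 and 13.1 to 37.5 CPM. These 6 genes held between 0.0937 and 0.167% of all mitochondrially encoded counts in a library, so the sums below are sums of the other 7.

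Of the 6 genes, 5 differ from the 7 in their annotated nuclear copies. Each mitochondrial transcript was cut into overlapping windows of 50 bases, and the windows were looked for, letter for letter, in the nuclear transcripts of GENCODE M21. All windows of mt-Co2 were found there (100%), and 99.9% of those of mt-Co3, 99.5% of mt-Atp6, 98.8% of mt-Nd4l and 98% of mt-Nd3. The share was 62.2% for mt-Nd4, 51.1% for mt-Co1, 8.2% for mt-Nd2, 7.6% for mt-Nd5 and 0% for mt-Nd1, mt-Nd6 and mt-Cytb. The exception among the low genes is mt-Atp8, with 0%, whose gene overlaps mt-Atp6. Only annotated transcripts were searched, not the nuclear genome, so a share of 0% does not mean that no nuclear copy exists. The copies are mostly unprocessed pseudogenes in a row on chromosome 1 (GRCm38, minus strand), among them Gm28438 at bases 24612775 to 24613119, Gm28437 at 24613189 to 24613971, Gm10925 at 24613974 to 24614651 and Gm28661 at 24614885 to 24615565. Reads of these genes can match both genomes, so their counts are uncertain, and mt-Nd4l also overlaps mt-Nd4. The part of these copies in the low counts was not tested. The first 60 bases of mt-Co2 and mt-Nd3 beside their chromosome 1 copies, and bases 661 to 720 of mt-Co1 beside its copy on chromosome 2, show how close the copies are, with capitals at the letters that differ.
mt-Co2: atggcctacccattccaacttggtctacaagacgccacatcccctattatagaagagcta
Gm28661: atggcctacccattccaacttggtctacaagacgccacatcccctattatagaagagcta
mt-Nd3: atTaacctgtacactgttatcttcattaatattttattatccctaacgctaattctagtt
Gm28438: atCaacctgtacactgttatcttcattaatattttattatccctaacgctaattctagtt
mt-Co1: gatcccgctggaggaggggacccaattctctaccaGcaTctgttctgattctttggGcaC
Gm13340: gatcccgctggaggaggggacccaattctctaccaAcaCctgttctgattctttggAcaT
The pairs differ at 0, 1 and 4 of their 60 letters. The mt-Co2 stretch was set in advance, and those of mt-Nd3 and mt-Co1 were chosen for the most differences among the aligned stretches tried. The library kit does not mark strand, so reads of mt-Nd6, which lies on the other strand from the rest, cannot be told from antisense reads.

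**Figure D1:**
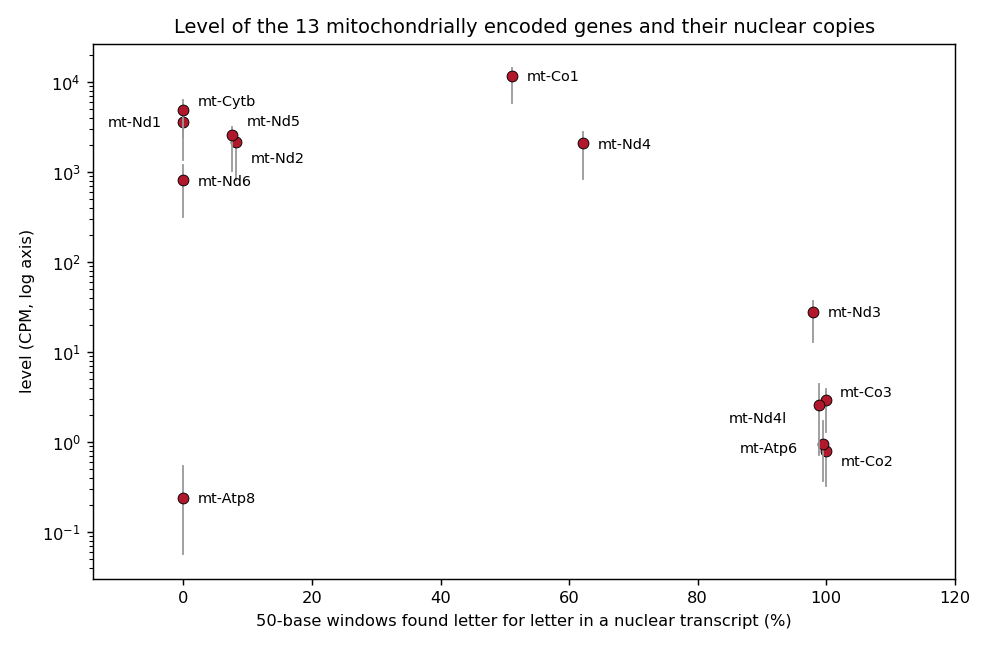
Each point is one of the 13 mitochondrially encoded genes, placed by the share of its 50-base windows found in nuclear transcripts (x axis, %) and by its median level over 24 libraries (y axis, CPM, log scale), with a line from the lowest to the highest library. The genes with shares of 98% or more and mt-Atp8 lie at or below 37.5 CPM, and the other 7 lie above 300 CPM in every library.

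The summed level of the mitochondrially encoded genes varied more between tumours than that of the nuclear genes, and most of that variation was at day 3 in vehicle and aCD40. At day 3 the mitochondrial sum was 29851, 27850 and 28051 CPM in the combination tumours, 27910, 28299 and 32982 CPM with D2C7-IT, 12776, 27807 and 35600 CPM with aCD40 and 33197, 15227 and 18191 CPM with vehicle. The nuclear sum in the same tumours was 8785, 9401 and 9626 CPM with the combination, 9324, 9315 and 8738 CPM with D2C7-IT, 7653, 9577 and 9832 CPM with aCD40 and 9817, 8123 and 8355 CPM with vehicle. The groups overlapped in both sums, since vehicle replicate 1 lay above every combination and D2C7-IT tumour and the other 2 vehicle tumours below them. At day 0 the mitochondrial sum was 26358, 24100 and 28084 CPM with the combination, 27302, 28915 and 26925 CPM with D2C7-IT, 32157, 29689 and 23246 CPM with aCD40 and 27385, 32361 and 34311 CPM with vehicle. There the groups also overlapped. The 3 libraries of high Egfr held the 3 lowest mitochondrial sums of all 24.

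The ratio of mitochondrially encoded to nuclear counts, which does not depend on how library sizes are scaled, set the same 3 libraries apart. At day 3 it was 3.40, 2.96 and 2.91 in the combination tumours, 2.99, 3.04 and 3.77 with D2C7-IT, 1.67, 2.90 and 3.62 with aCD40 and 3.38, 1.87 and 2.18 with vehicle. At day 0 it was 2.90, 2.69 and 3.06 with the combination, 2.97, 3.34 and 2.87 with D2C7-IT, 3.56, 3.22 and 2.95 with aCD40 and 3.07, 3.16 and 3.68 with vehicle. The combination tumours at day 0 all lay below the vehicle tumours of that day, with a mean log2 ratio of 1.53 ± 0.0918 against 1.72 ± 0.142 (SD, n = 3 each). At day 3 the means were 1.62 ± 0.122 with the combination and 1.26 ± 0.442 with vehicle. Without the 3 libraries of high Egfr, the difference in mean log2 ratio at day 3 was -0.13 between the combination and the 1 vehicle tumour left and -0.06 between D2C7-IT and that tumour, in place of 0.36 and 0.44 with all libraries.

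**Figure D2:**
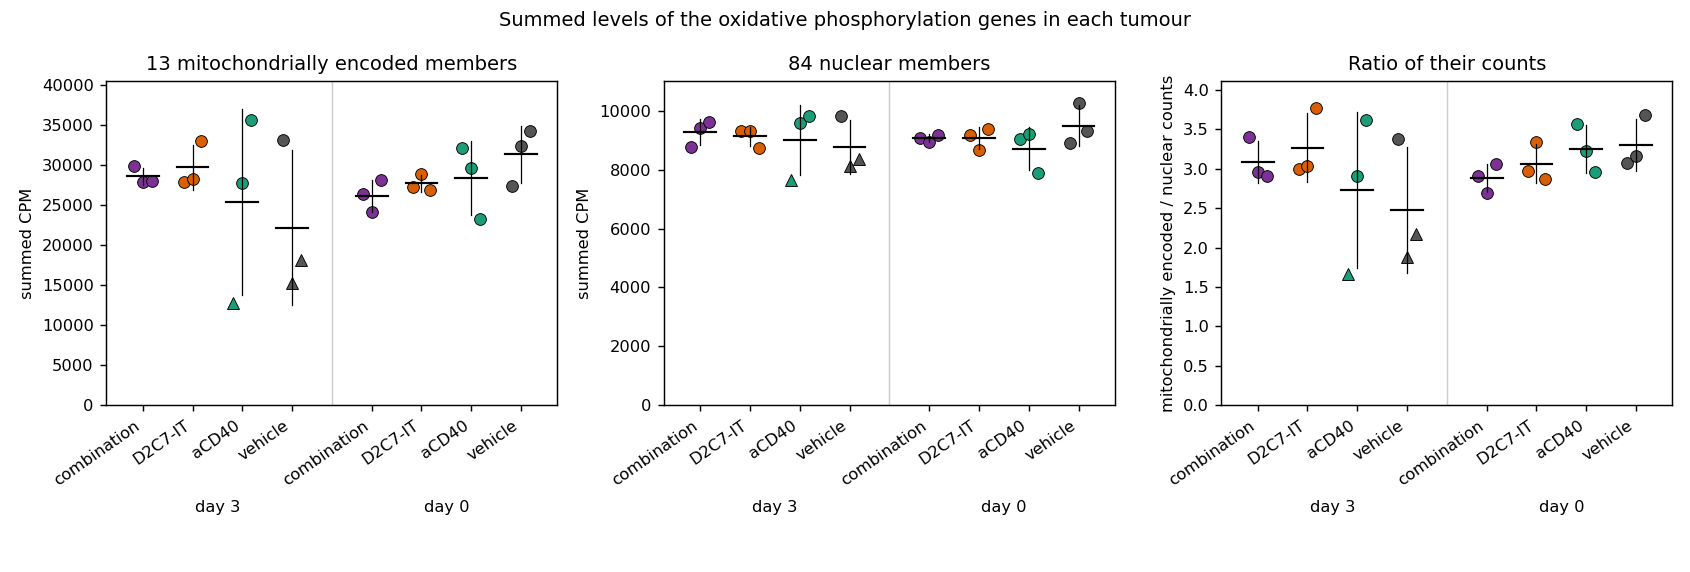
Summed CPM of the 13 mitochondrially encoded members (left), of the 84 nuclear members (middle) and the ratio of their counts (right) in each tumour, by treatment at day 3 and day 0. Each symbol is 1 tumour, bars are means with SD (n = 3), and triangles mark the 3 libraries of high Egfr, which hold the 3 lowest ratios (1.67 to 2.18 against 2.69 to 3.77 in the other 21).

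At day 0, treated tumours had slightly lower levels of most members than vehicle tumours, and no member passed the test. mt-Co1 had 10749, 10297 and 11408 CPM with the combination, 10981, 11821 and 11092 CPM with D2C7-IT, 12928, 12114 and 9611 CPM with aCD40 and 11471, 13051 and 14296 CPM with vehicle. The combination tumours lay below all vehicle tumours, with a log2 fold change of -0.26 ± 0.29 (SE; edgeR adjusted p = 1). mt-Cytb differed by -0.28 ± 0.30 in the combination, -0.16 ± 0.30 with D2C7-IT and -0.15 ± 0.30 with aCD40. Over the list, the median log2 fold change of the combination against vehicle was -0.26 for the 13 mitochondrial members and -0.08 for the 83 nuclear members tested, beside 0.02 for all 22280 genes. With D2C7-IT it was -0.20 and -0.06, and with aCD40 -0.14 and -0.10. Every one of the 13 mitochondrial members was lower in the combination, and 64 of 83 nuclear members. The share of all genes that were lower is not given here. Comparisons with vehicle on the same day share its vehicle tumours, so they are not separate observations.

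By the threshold of this test, an adjusted p under 0.05 over all genes, 0 of 96 members were called at day 0 with the combination (0% of all genes were), with D2C7-IT (0.0808% of all genes) or with aCD40 (0% of all genes). At an unadjusted p under 0.05, 0 of 96 members passed with the combination (3.03% of all genes), 1 with D2C7-IT (4.52%) and 2 with aCD40 (1.36%). The member with D2C7-IT was Cox7a2l, at 94.1, 77.9 and 84.3 CPM against 96.4, 126 and 98.1 CPM with vehicle, a log2 fold change of -0.32 ± 0.15 (adjusted p = 1). Those with aCD40 were Atp5g1, a gene of ATP synthase subunit c, at -0.28 ± 0.12, and Ndufs8, an iron-sulphur subunit of complex I, at -0.20 ± 0.09. In the combination, groups did not overlap for 4 nuclear members that were higher (5.45% of all genes) and for 12 nuclear and 3 mitochondrial members that were lower (4.02% of all genes). Among those higher were Uqcrc2, a core protein of complex III, at 0.13 ± 0.11, Ndufs1, the large iron-sulphur subunit of complex I, at 0.13 ± 0.13, and Cox6a2, the muscle isoform of a complex IV subunit, at 0.44 ± 0.37. The lower ones included Atp5k, a membrane subunit of ATP synthase, at -0.28 ± 0.14, and Ndufs4, a late-assembling subunit of complex I, at -0.19 ± 0.10.

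At day 3, 12 of the 13 mitochondrial genes had positive log2 fold changes against vehicle with each treatment, and again no member passed. mt-Co1 had 12348, 11643 and 11812 CPM with the combination, 12459, 12075 and 13599 CPM with D2C7-IT, 5922, 11671 and 14285 CPM with aCD40 and 13338, 6752 and 7709 CPM with vehicle. The vehicle tumours were split: replicate 1 lay above most treated tumours and the other 2 replicates below all but 1 of them. The log2 fold change of mt-Co1 was 0.36 ± 0.29 with the combination (adjusted p = 0.444), 0.46 ± 0.29 with D2C7-IT (0.31) and 0.20 ± 0.29 with aCD40 (0.998). mt-Cytb differed by 0.24 ± 0.30, 0.30 ± 0.30 and 0.14 ± 0.30 in the same order. The medians over the mitochondrial members were 0.36 with the combination, 0.40 with D2C7-IT and 0.20 with aCD40, beside 0.09, 0.04 and 0.05 over the nuclear members and 0.01, 0.02 and 0.02 over all genes. Without the 3 libraries of high Egfr, the mitochondrial medians were -0.21 with the combination and -0.23 with D2C7-IT, and mt-Co1 differed by -0.13 and -0.06. Those values rest on a single vehicle tumour, assumed to vary like the other groups.

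Among nuclear members at day 3, Atp5g2, a gene of ATP synthase subunit c whose levels are given below, had the smallest adjusted p both with the combination (0.127) and with D2C7-IT (0.119), and Cox6b2 the next. Adjusted p-values called 0 of 96 members with the combination (0.0404% of all genes), D2C7-IT (0%) or aCD40 (0%). At an unadjusted p under 0.05 they were 4 of 83 nuclear and 0 of 13 mitochondrial members with the combination (24% of all genes), 3 and 0 with D2C7-IT (28.2% of all genes), and 0 and 0 with aCD40 (1.91%). Both shares of the toxin-treated groups were below those of all genes. Cox6b2, a testis isoform of a complex IV subunit, had 2.92, 3.43 and 2.96 CPM with the combination, 2.05, 3.73 and 3.51 CPM with D2C7-IT and 1.98, 1.49 and 1.64 CPM with vehicle. Both treated groups lay above vehicle, with log2 fold changes of 0.86 ± 0.35 (adjusted p = 0.149) and 0.86 ± 0.35 (0.125), at levels near the lower end of the members. Ndufa6, a small complex I subunit, differed by 0.33 ± 0.15 in the combination and Ndufa10, another accessory subunit of that complex, by 0.27 ± 0.14 with D2C7-IT. Ndufs8 and Ndufb7, an accessory subunit of complex I, were lower with D2C7-IT, at -0.22 ± 0.09 and -0.22 ± 0.11, and Atp5l, a membrane subunit of ATP synthase, was lower in the combination, at -0.13 ± 0.08. Groups did not overlap for 4 nuclear members higher in the combination (8.06% of all genes) and 2 lower (7.45%), and for 2 higher (7.43%) and 8 lower (5.78%) with D2C7-IT.

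**Figure D3:**
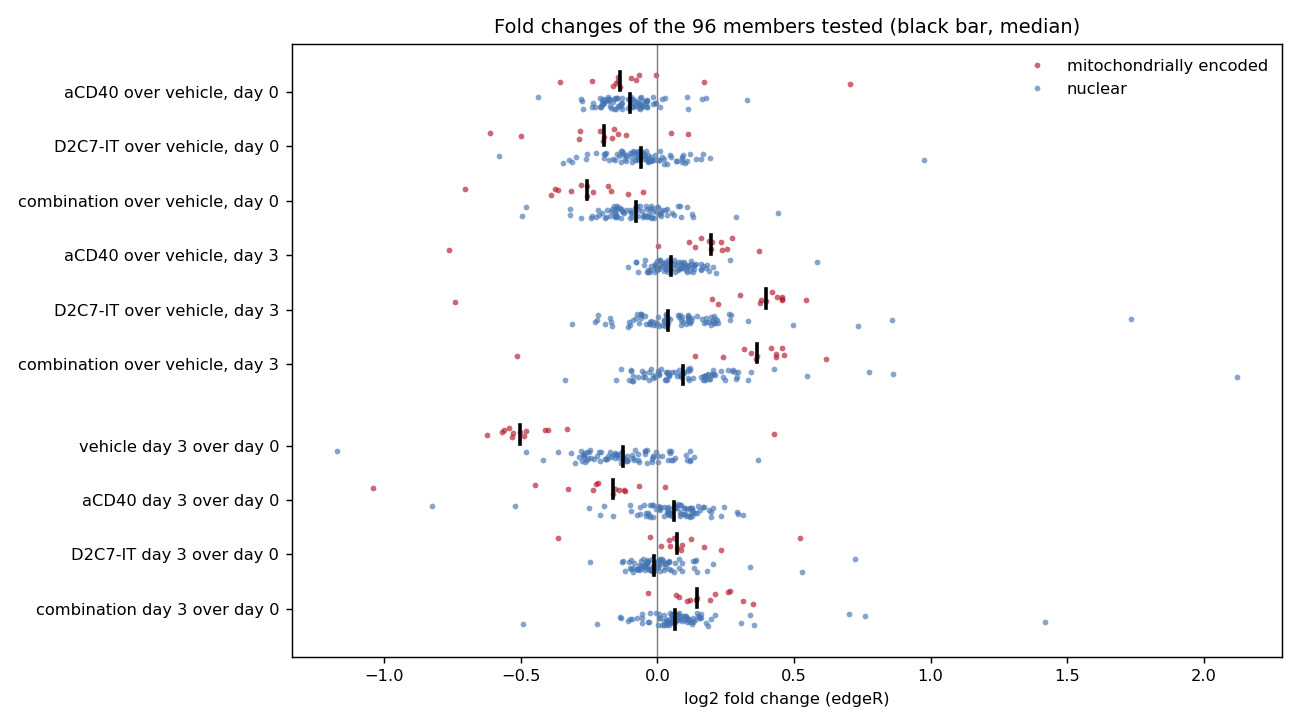
Log2 fold changes (x axis, edgeR) of the 96 members tested in each comparison with vehicle on the same day and of day 3 over day 0. Red points are the 13 mitochondrially encoded members, blue points the 83 nuclear members, and black bars their medians, which for the mitochondrial members run from -0.26 to -0.14 against vehicle at day 0 and from 0.20 to 0.40 at day 3.

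Between the days, vehicle tumours showed the widest difference and none of it passed the test. mt-Cytb had 6110, 2915 and 3553 CPM at day 3 and 4892, 6004 and 5850 CPM at day 0, so that 2 of the 3 day 3 tumours lay below and 1 above every day 0 tumour. Its log2 fold change was -0.41 ± 0.30 (adjusted p = 0.342), and that of mt-Co1 -0.48 ± 0.29 (0.255). The median over the mitochondrial members was -0.50 in vehicle, beside -0.13 over the nuclear members and 0.01 over all genes. It was -0.16 with aCD40, 0.07 with D2C7-IT and 0.15 with the combination, where the nuclear medians were 0.06, -0.01 and 0.06. Without the 3 libraries of high Egfr the vehicle medians were 0.12 for the mitochondrial and 0.05 for the nuclear members, and the aCD40 medians 0.15 and 0.18, so that the mitochondrial median changed sign in both groups.

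Adjusted p-values called 0 of 96 members between the days with the combination (0% of all genes), D2C7-IT (0.00449%), aCD40 (0.0583%) or vehicle (0%). An unadjusted p under 0.05 was reached by 2 members with the combination (4.66% of all genes), 0 with D2C7-IT (3.51%), 5 with aCD40 (11.6%) and 1 with vehicle (30.2%). With the combination, day 3 and day 0 did not overlap for 4 mitochondrial and 6 nuclear members that were higher (7.07% of all genes) and 4 nuclear members that were lower (6.49%). With D2C7-IT they did not overlap for 3 mitochondrial members that were higher (4.96%) and 1 nuclear member that was lower (6.36%), and with aCD40 for 5 nuclear members that were higher (5.05%) and 0 that were lower (5.81%). In vehicle they did not overlap for 1 nuclear member that was higher (6.49% of all genes) and 3 that were lower (6.65%), and for 0 mitochondrial members. The 5 aCD40 members at an unadjusted p under 0.05 included Ndufb7, which was 58.7, 58.2 and 63.7 CPM at day 3 and 48.3, 50.8 and 46.4 CPM at day 0 (0.31 ± 0.11, adjusted p = 0.424). The others were Ndufs8 (0.23 ± 0.09), Atp5e, the epsilon subunit of ATP synthase (0.29 ± 0.12), Atp5g2, whose levels are given below, and the mitochondrial gene mt-Atp8. The last was lower at day 3 (-1.04), with overlapping groups and counts near 0. For the 4 nuclear genes, all day 3 tumours lay above all day 0 tumours, the high-Egfr tumour included. In the combination the 2 members were Cox7a1, a heart and muscle isoform of complex IV, at 0.76 ± 0.31, and Ndufa2, an accessory subunit of complex I, at 0.30 ± 0.13.

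In the edgeR test, a single vehicle tumour decided whether members passed. Leaving out vehicle replicate 1, the day 3 vehicle tumour without high Egfr, 15 of 96 members were called for D2C7-IT at day 3 (35.7% of all genes), 14 for the combination at day 3 (30.1%) and 20 for vehicle at day 3 against day 0 (41.1%). In that setting vehicle at day 3 is the pair of tumours with high Egfr. The 3 comparisons share this pair, so they are not separate observations. Of the 13 mitochondrial members 6, 4 and 10 were called (46.2%, 30.8% and 76.9%). These include low genes of uncertain counts, mt-Co2 and mt-Nd3 in all 3 comparisons and mt-Atp6 in vehicle between days. The combination share was near that of all genes, the D2C7-IT share somewhat above it and the vehicle share well above it. Most of the 13 genes are transcribed together on long RNAs, so the shares do not count separate observations. Of the 83 nuclear members 9, 10 and 10 were called (10.8%, 12% and 12%), shares below those of all genes. The called mitochondrial genes were all higher with D2C7-IT and the combination and all lower in vehicle at day 3 than at day 0. mt-Nd5, a proton-pumping subunit of complex I, had a log2 fold change of 1.02 with D2C7-IT (adjusted p = 0.021), 0.94 with the combination (0.0339) and -1.05 in vehicle between days (0.0165). With all libraries its adjusted p-values in the same order were 0.277, 0.383 and 0.232. Of the nuclear members, Ndufa10, Ndufs3, Uqcrc2 and Sdha, the flavoprotein of complex II, were called in all 3 comparisons in the same directions as the mitochondrial genes, and Atp5g2, a gene of ATP synthase subunit c, in all 3 in the opposite direction, as was Ndufs8 with D2C7-IT. Leaving out either of the other day 3 vehicle tumours called 0 members in each of the 3 comparisons.

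Within the complexes, the 3 libraries of high Egfr were lowest of all 24 for most mitochondrial genes and for a smaller share of the nuclear genes. All 3 lay below the other 21 for 9 of 13 mitochondrial members (69.2%), for 22 of 83 nuclear members (26.5%) and for 18.9% of all genes. All 3 lay above the others for 0 mitochondrial members, for 1 nuclear member (1.2%) and for 26.1% of all genes. By complex, they were lowest for 13 of 37 nuclear members of complex I, 1 of 4 of complex II, 3 of 8 of complex III, 3 of 18 of complex IV and 2 of 17 of complex V. The summed nuclear level of complex I was 2110 to 2389 CPM in the 3 and 2278 to 3006 CPM in the other 21, and that of complex V 3064 to 3260 CPM against 2877 to 3710 CPM. So in these tumours the nuclear sum of complex V stayed inside the range of the others, although Atp5a1 was at 624 to 669 CPM against 671 CPM or more. The gene mt-Co1 was at 5922, 6752 and 7709 CPM, against 9611 CPM or more elsewhere. Of the nuclear members of complex IV, the same complex, the 3 libraries were lowest for Cox4i1, Cox6a1 and Cox6c. Levels of neuron and proliferation markers parted the same libraries, and their part in the result was not tested.

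**Figure D4:**
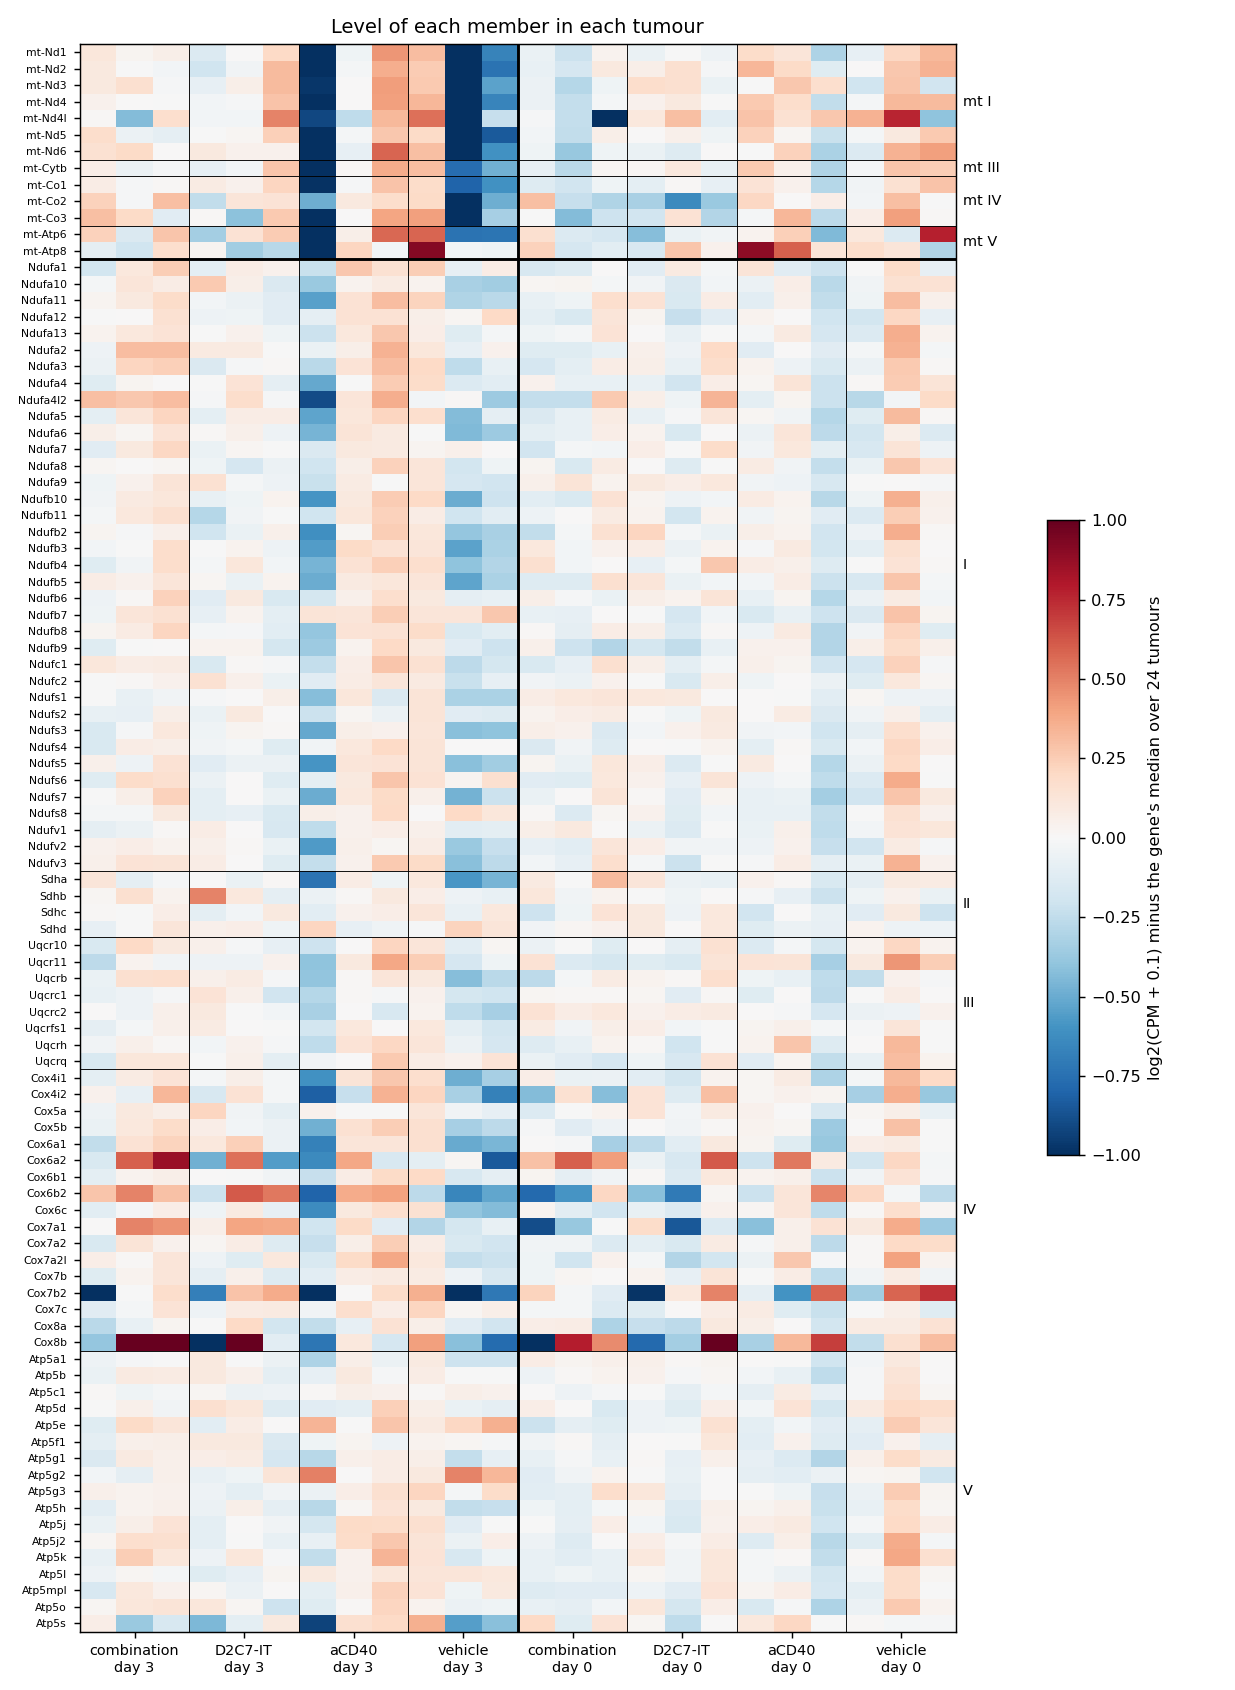
Level of each of the 96 tested members (rows, mitochondrially encoded genes on top, then nuclear genes by complex I to V) in each of the 24 tumours (columns, 3 per group, day 3 left of day 0). Colour is log2(CPM + 0.1) minus the gene's own median, cut at -1 and 1, and the blue columns at aCD40 and vehicle, day 3, are the 3 libraries of high Egfr.

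Among the nuclear subunits, levels per kilobase of transcript differed by complex. The highest member of complex IV was Cox4i1, a regulatory subunit of cytochrome c oxidase, with a mean of 529.6 CPM per kilobase over the 24 libraries. In complex V it was Atp5b, the catalytic beta subunit of ATP synthase, at 513, in complex I Ndufa4 at 308, in complex III Uqcrh, the hinge protein, at 228, and in complex II Sdha at 124 CPM per kilobase. The Ndufa4 protein is now known as a subunit of complex IV, and it is kept under complex I by its symbol. mt-Co1 therefore stood far above every nuclear member per kilobase. Cox4i1 had 448, 285 and 317 CPM in vehicle at day 3 and 394, 500.2 and 457 CPM in vehicle at day 0, a log2 fold change of -0.36 ± 0.20 (adjusted p = 0.215). Atp5b was at 1034, 976 and 979 CPM and 971, 1069 and 981 CPM in the same groups, with the groups overlapping.

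Complex II, which has no mitochondrial subunit and also serves the citric acid cycle, gave no call in any comparison with all libraries in the fit. Sdha ranged over 221 to 458 CPM, and its 3 lowest values, 221, 246 and 267 CPM, were those of the libraries of high Egfr. Sdhb, the iron-sulphur subunit, and the membrane anchors Sdhc and Sdhd ranged over 86.8 to 142, 72.7 to 92.2 and 57.0 to 72.1 CPM. For Sdhd the same 3 libraries were among the 4 highest, at 71.8, 72.1 and 67.2 CPM. The log2 fold change of Sdhd in vehicle between days was 0.14 ± 0.10 (adjusted p = 0.325).

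Tissue-restricted isoforms were low beside their ubiquitous partners in every tumour. Cox6a2 ranged over 1.95 to 6.59 CPM and its partner Cox6a1 over 136 to 255 CPM, and Cox7a1 over 0.705 to 2.00 CPM and its partner Cox7a2 over 74.3 to 106 CPM. Cox8b, another heart and muscle isoform, ranged over 0.0271 to 1.18 CPM beside 194 to 276 CPM for Cox8a. Cox4i2, the lung isoform of subunit 4, was at 0.852 to 2.06 CPM, and Ndufa4l2, a paralogue of Ndufa4 that hypoxia induces, at 1.34 to 3.34 CPM. The testis isoforms Cox6b2 and Cox7b2 were at 1.34 to 3.73 and 0 to 0.309 CPM, beside 97.9 to 132 CPM for Cox6b1 and 75.8 to 99.2 CPM for Cox7b. Muscle markers were also low, with a summed level of 6.55 to 15.7 CPM over 9 genes, against 161 to 265 CPM over 8 markers of pericytes and smooth muscle. In the combination at day 3, Cox6a2 had 3.21, 5.48 and 6.59 CPM against 3.34, 3.64 and 1.95 CPM with vehicle, a log2 fold change of 0.77 ± 0.37 (adjusted p = 0.206), with overlapping groups.

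ATP synthase subunit c, the ring of the rotor, is encoded by Atp5g1, Atp5g2 and Atp5g3, which give the same mature protein. The genes did not follow each other. At day 3 Atp5g2 had 49.2, 47.2 and 52.0 CPM with the combination, 47.6, 48.5 and 54.8 CPM with D2C7-IT, 71.0, 50.4 and 52.8 CPM with aCD40 and 53.8, 70.6 and 63.3 CPM with vehicle. At day 0 it had 46.4, 49.0 and 51.3 CPM with the combination, 50.1, 47.7 and 50.2 CPM with D2C7-IT, 47.0, 46.5 and 48.2 CPM with aCD40 and 50.7, 51.1 and 43.7 CPM with vehicle. It is the member for which the 3 libraries of high Egfr lay above all others. Its log2 fold change was 0.37 ± 0.13 in vehicle at day 3 against day 0, the smallest adjusted p of any member in the comparisons made (0.108, 95% interval 0.10 to 0.63). Against vehicle at day 3 it was -0.34 ± 0.13 in the combination (0.127) and -0.31 ± 0.13 with D2C7-IT (0.119). By DESeq2 it was called in vehicle between days (log2 fold change 0.38, adjusted p = 0.0458). Ndufs8 was called by DESeq2 with D2C7-IT at day 3 (-0.23), with an adjusted p just under the threshold that rounds to 0.05. Each was the 1 member called there, beside 11.2% of all genes in both comparisons. Atp5g1 had 113, 92.6 and 103 CPM in vehicle at day 3 and 113, 124 and 116 CPM at day 0, and Atp5g3 220.2, 187 and 216 CPM and 182, 226 and 193 CPM.

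**Figure D5:**
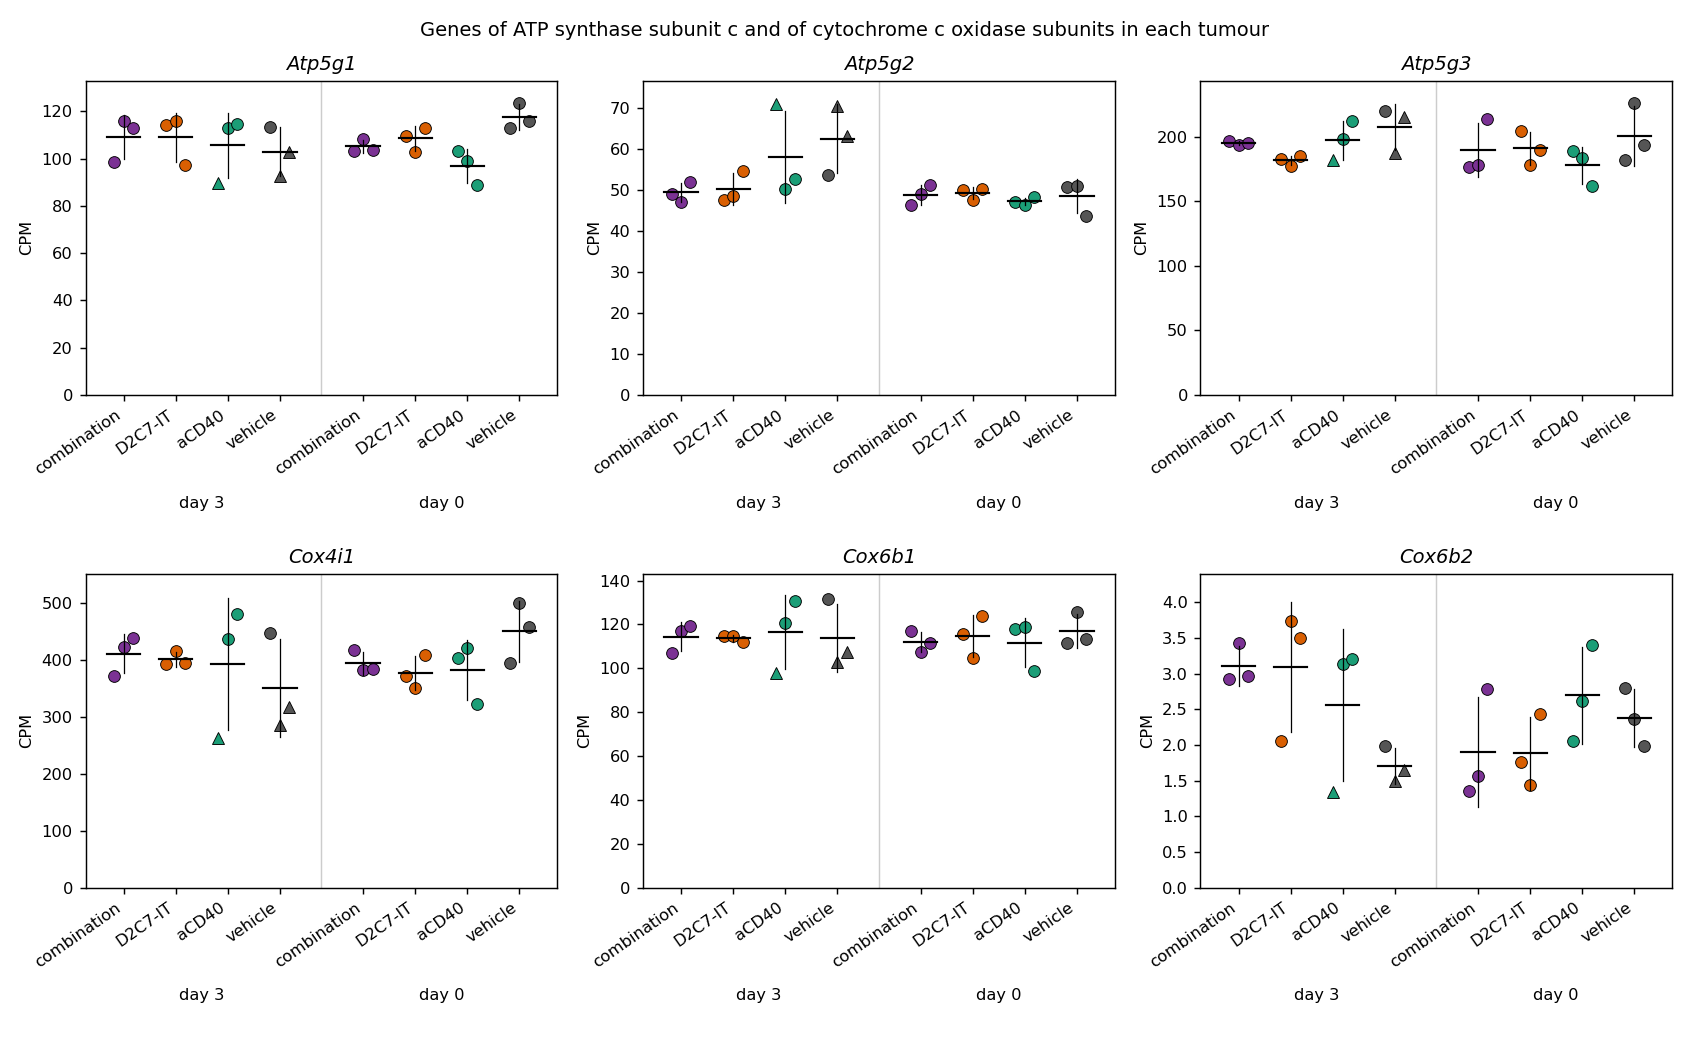
CPM of the 3 genes of ATP synthase subunit c (top) and of Cox4i1, Cox6b1 and Cox6b2 (bottom) in each tumour, by treatment at day 3 and day 0. Each symbol is 1 tumour, bars are means with SD (n = 3), and triangles mark the 3 libraries of high Egfr, which are the 3 highest of 24 for Atp5g2 and the 3 lowest for Cox4i1.

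Promoters were read to see what the nuclear members share beyond their symbols. RefSeq sequences (GRCm38.p6) from 250 bases before to 50 after the gene start were found for 66 of the 84 nuclear members. The consensus of NRF1, a regulator of respiratory genes, occurred on either strand in 17 of the 66 (25.8%) and in 7.17% of 17492 genes. The letters CCGGAAG, a core of sites for ETS factors such as GABP, occurred in 16 (24.2%) and in 12.95% of genes. TATAAA occurred in 7 (10.6%) and in 14.8% of genes. The last 100 bases before the start of 3 members show the kinds, with capitals at an NRF1 match in Atp5g2 (chr15:102671048-102671147, minus strand), at an ETS match in Cox6b1 (chr7:30626115-30626214, minus strand) and with no match in its testis paralogue Cox6b2 (chr7:4753095-4753194, minus strand).
Atp5g2: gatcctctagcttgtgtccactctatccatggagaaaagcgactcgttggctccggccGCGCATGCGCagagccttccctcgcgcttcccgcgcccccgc
Cox6b1: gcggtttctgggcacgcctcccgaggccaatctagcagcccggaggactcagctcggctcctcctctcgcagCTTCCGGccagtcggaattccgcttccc
Cox6b2: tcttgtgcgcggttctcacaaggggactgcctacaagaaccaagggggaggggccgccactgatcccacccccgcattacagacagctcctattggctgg
Cox6b1 was at 185 CPM per kilobase and Cox6b2 at 4.37. This pair does not stand for the list. Of the highest nuclear members of each complex, Atp5b and Ndufa4 had none of these motifs, Uqcrh had the ETS letters and Sdha the NRF1 consensus. For Cox4i1 no promoter sequence was found. Whether a motif goes with level was not tested.

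Set against the single agents, the combination gave no member called. At an adjusted p under 0.05, 0 of 96 members passed against aCD40 at day 0 (0% of all genes) and day 3 (0%) and against D2C7-IT at day 0 (0%) and day 3 (0%). No member passed an unadjusted p of 0.05 in these 4 comparisons, beside 0.884%, 11.1%, 2.77% and 2.44% of all genes in the same order. The mitochondrial median of the combination against aCD40 was -0.17 at day 0 and 0.20 at day 3, and against D2C7-IT -0.10 and -0.02. The day 3 value against aCD40 includes the aCD40 tumour with the lowest mitochondrial sum of all 24, and without the 3 libraries of high Egfr it was -0.15. These comparisons share the combination tumours with those against vehicle.

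Whether an effect differed between the days was tested gene by gene. For all 3 treatments, 12 of 13 mitochondrial members had a higher log2 fold change against vehicle at day 3 than at day 0, with a median difference of 0.66 for the combination, 0.59 for D2C7-IT and 0.33 for aCD40. The nuclear medians were 0.19, 0.10 and 0.17. Without the 3 libraries of high Egfr the mitochondrial medians were 0.0345 for the combination, -0.0666 for D2C7-IT and 0.039 for aCD40, all near 0. All 3 share the vehicle tumours, so they are not separate observations. The test called 0 of 96 members for the combination (0% of all genes), D2C7-IT (0%) and aCD40 (0%). At an unadjusted p under 0.05, 3, 3 and 1 members passed, beside 8.05%, 17.6% and 1.22% of all genes. They were Cox6b2, Cox7a1 and Ndufa2 for the combination, Cox6b2, Ndufa10 and mt-Co2 for D2C7-IT, and mt-Atp8 for aCD40. Without vehicle replicate 1 at day 3, 1 member, mt-Co2, was called for D2C7-IT (1.51, adjusted p = 0.0408), beside 16.1% of all genes.

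Other genes of the pathway also gave few calls. None of the 45 assembly factors, 19 electron carriers and partners, 16 citric acid cycle genes, 28 genes of mitochondrial DNA expression, 14 biogenesis regulators and 78 mitochondrial ribosomal proteins tested was called in any comparison with vehicle or between days with all libraries. Over all genes, 0.0404% were called in the combination at day 3, 0.0808% with D2C7-IT at day 0, 0.0583% with aCD40 between days, 0.00449% with D2C7-IT between days and 0% in the other 6 of these comparisons. In the fit without the 3 libraries of high Egfr, 1 of the 28 genes of mitochondrial DNA expression was called with D2C7-IT at day 0, beside 0.184% of all genes. It was Pnpt1, an RNA-degrading enzyme of mitochondria, named after its value was seen (log2 fold change 0.58, adjusted p = 0.0435). The mitochondrial ribosomal proteins were not examined in that fit. Of 13 genes of mitochondrial stress and turnover, 1 was called higher and 0 lower, in the combination at day 3. It was Ddit3, a transcription factor of the stress response, at 33.5, 74.1 and 72.0 CPM with the combination, 48.7, 57.5 and 37.9 CPM with D2C7-IT, 29.0, 28.0 and 28.0 CPM with aCD40 and 23.6, 23.0 and 24.5 CPM with vehicle. The combination and D2C7-IT groups lay wholly above vehicle of that day, as 8.06% of all genes did with the combination and 7.43% with D2C7-IT. In vehicle at day 0, however, Ddit3 had 30.4, 31.2 and 30.9 CPM, above every aCD40 tumour at day 3. Against vehicle at day 3, Ddit3 differed with aCD40 by a log2 fold change of 0.26 (edgeR adjusted p = 0.998). With all libraries its log2 fold change was 1.34 ± 0.22 with the combination (adjusted p = 0.0313) and 1.02 with D2C7-IT (0.08), and the combination differed from D2C7-IT at day 3 by 0.32 (adjusted p = 1). In the fit without the 3 libraries the combination value was 1.38 (adjusted p = 0.708), no longer a call, against a single vehicle tumour. The median of the genes of mitochondrial DNA expression was -0.22 with the combination and -0.22 with D2C7-IT against vehicle at day 3, and 0.24 in vehicle at day 3 against day 0. Leaving out the 3 libraries, these medians were -0.0357, 0.047 and -7e-04.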

How the data were processed

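The data are RNA sequencing read counts per gene of 24 tumours. The authors deposited raw counts, which were not normalized, and per the labels' protocols libraries came from oligo(dT)-enriched RNA with a kit that does not mark strand. Upstream, STAR 2.5.2b, featureCounts, Subread 1.5.2, Trimmomatic 0.36, bcl2fastq 2.17 and the GRCm38 build are listed in the submitters' processing notes. The sources used here do not give the annotation release, nor how reads matching several places were treated. The 6 tables hold 36 count columns, of which 12 repeat another and 0 of those differ.

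Symbols came from GENCODE M21, which names 49056 of 49315 identifiers. In R 4.3.3, edgeR 4.0.16 filtered genes with filterByExpr (22280 kept), scaled libraries by TMM and fitted 1 mean per group over all 24 libraries with the robust quasi-likelihood test (16 residual degrees of freedom, biological coefficient of variation 0.412). Calls in each of 17 comparisons needed p under 0.05 after Benjamini-Hochberg adjustment across the genes kept. The fit was tested on simulated data. Alternatives were DESeq2 1.42.0, its size factors, library sizes without mitochondrial genes, no filter, fewer groups in the fit, a replicate block, and fits without single replicates or without the 3 libraries of high Egfr.

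Members and lists were chosen with earlier results of these data known, and the list of mitochondrial ribosomal proteins was added last. Named genes are the mitochondrial members, called members, the 3 nuclear members of smallest p in each direction and comparison, the Sdh genes, the highest subunit of each complex, tissue isoforms with their partners, and Egfr. Other genes, among them Atp5g3, Ddit3 and members called without a library, were named after their values were seen.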

Additional observations from a re-analysis of the deposited data

How the results depend on the processing

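No member was called in any of the 17 comparisons with DESeq2 size factors, library sizes without mitochondrial genes, no filter, only the groups compared, or without the 3 libraries of high Egfr. DESeq2's own test called 1 member for D2C7-IT against vehicle at day 3 and 1 for vehicle at day 3 against day 0. Each stood beside 11.2% of all genes called. Replicate numbers did not pair the tumours: the correlation of deviations ran from -0.91 to 0.51 over 84 pairs of same-numbered tumours in different groups. A fit with the replicate number as a block called 0 members in every comparison. For the fits in which no member was called, the share of all genes called is mostly not given here. Those counts of 0 are therefore not read as a result about the members.

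Without the 3 libraries of high Egfr, which leaves 1 vehicle tumour at day 3, the mitochondrial medians were -0.23 for D2C7-IT and -0.21 for the combination against vehicle at day 3, and 0.12 for vehicle at day 3 against day 0. The nuclear medians were -0.11 for D2C7-IT and 0.0522 for vehicle between days. The differences in log2 ratio were -0.0574, -0.13 and 0.0383 for D2C7-IT, the combination and vehicle between days. In the same setting, mt-Co1 and mt-Cytb changed sign, to -0.0152 and -0.0783 for aCD40, -0.0556 and -0.23 for D2C7-IT and -0.13 and -0.27 for the combination against vehicle at day 3, to 0.034 and 0.12 for vehicle between days, and to 0.17 and 0.19 for aCD40 between days. Atp5e changed to 0.0082 for the combination at day 3, and Sdha and Ndufs1 to 0.0513 and 0.0278 for aCD40 between days.

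Leaving out 1 replicate at a time, members called ranged from 0 to 15 for D2C7-IT and from 0 to 14 for the combination against vehicle at day 3, from 0 to 20 for vehicle between days, and from 0 to 1 for the difference of the D2C7-IT effect between days. The mitochondrial median ranged from 0.18 to 0.88 for the combination at day 3 and from -0.0671 to 0.12 for D2C7-IT between days. Single genes whose ranges crossed 0 follow. For aCD40 at day 0 they were Cox6b2 (-0.0292 to 0.34) and Cox6a2 (-0.064 to 0.32). For aCD40 at day 3 they were mt-Co1 (-0.0757 to 0.56), mt-Cytb (-0.17 to 0.51), Atp5g2 (-0.27 to 0.0114) and Sdhd (-0.17 to 0.0025). For aCD40 between days they were mt-Co1 (-0.40 to 0.17), mt-Cytb (-0.44 to 0.18), Sdha (-0.32 to 0.0499) and Ndufs1 (-0.25 to 0.0267), and for D2C7-IT between days mt-Cytb (-0.0729 to 0.11). The causes were not tested. The medians of the other pathway lists and Ddit3 without the 3 libraries were added after seeing the data.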
